A study of Mus musculus with 44 samples.

Results

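Caspases are proteases that carry out apoptosis, and the genes described here encode 3 of them, Casp2, Casp8 and Casp9, together with the regulators Apaf1, Bax, Bcl2, Bcl2l1 and Xiap. Their values come from all Affymetrix probesets with values and all probes of the normalized Illumina table that are annotated to these 8 symbols. In the whole series 18101 genes were named by a probe with values. There were 22 such probesets of 38870 with values and 14 such probes of 14185, and 7 of the 8 genes had at least 1. Bax, which opens the mitochondrial outer membrane, is not analysed here. It matched no Affymetrix probeset with a single symbol and no probe of the normalized Illumina table. Xiap matched no probe of that table. Probesets with several symbols and Illumina probes outside the table were not searched. The genes were chosen from measured strain differences of these same arrays, above all that of Casp9. The strain differences below are therefore given as a description, with no p-value, and nothing is supported with them.

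The arrays measured striatal RNA of naïve adult mice of the inbred strains C57BL/6J (B6) and DBA/2J (D2), with 1 array per mouse. The Affymetrix MOE430 2.0 arrays held 5 females and 5 males of each strain, numbered 61 to 80, and the Illumina MouseRef-8 v2.0 arrays held 12 males of each strain, numbered 1 to 12. By the paper, 5 Illumina mice of each strain were an independent group, and the rest were also used for RNA-Seq. The labels do not say which arrays belong to which group. The mice were untreated, so strain and, on the Affymetrix arrays, sex are what the groups differ in by design. The striatum was cut from a coronal slice of each brain, so that the RNA is that of all cell types in the tissue.

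In the mitochondrial pathway of apoptosis, BAX and its relatives release cytochrome c from mitochondria, and BCL2 and BCL2L1 (BCL-XL) hold them back. Cytochrome c binds APAF1, which assembles into the apoptosome and recruits and activates caspase-9, which in turn cleaves the executioner caspases. Caspase-8 starts the separate pathway from death receptors, caspase-2 responds to stress signals, and XIAP binds and inhibits caspase-9 and the executioner caspases.

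The Illumina probes are single oligonucleotides of 50 bases, and their sequences were read from the identifiers in the deposited table. The first 30 bases are printed, 5′ to 3′ and in lower case, for the Casp9 probe, for both Apaf1 probes and for the Bcl2 probe with the largest difference. The comparisons below use the array values of these probes and not the printed bases.
Casp9 ILMN_1217061: gcctctgtggattgggcgcaaaggttaaag
Apaf1 ILMN_1228561: ctctggctgtcagtgtctgtgaattgggca
Apaf1 ILMN_3143577: tgctctggcggcctgcatgaccacttgtgg
Bcl2 ILMN_1249021: gggcagcttttaaggttgatacttttaggc

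A further pair of Bcl2 probes overlaps in sequence and is no pair of independent measurements. The last 34 bases of the first are the first 34 of the second, and capitals mark the shared bases among the 30 printed.
Bcl2 ILMN_1215796: gttcggtgtaactaaaGACACCCCTTCATC
Bcl2 ILMN_2597567: GACACCCCTTCATCCAAGAATGCAAAGCAC

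Affymetrix values are on a log2 scale (RMA) and Illumina values on a variance-stabilized scale (VST) that is close to log2 at high signal. Differences are B6 minus D2 throughout. Of the members, 15 Affymetrix probesets of 6 genes had a mean among the highest 50% and 9 Illumina probes of 5 genes passed detection throughout at least 1 strain. These were tested with limma among 19437 probesets and 11072 probes. A call required a Benjamini-Hochberg adjusted p below 0.01.

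Some arrays stood apart. The array labelled B6 female 64 lay at 0.51 on a scale of unlogged values from the D2 mean at 0 to the B6 mean at 1. The scale used 148 probesets that separated the other arrays. On it the other B6 arrays lay at 0.99 to 1.01 and the D2 arrays at -0.006 to 0.02. The choice of probesets and of the means places those arrays near the ends. The D2 Illumina arrays 3, 5, 6 and 12 had mean bead signals of 599 to 985, against 1223 to 1849 on the others. Markers of striatal projection neurons were high in both strains, with a mean level of 11.05 to 11.99 on the B6 and 11.08 to 11.71 on the D2 Affymetrix arrays. There 0 of 8 tested genes were called. On the Illumina arrays the levels were 12.74 to 13.52 in B6 and 12.53 to 13.44 in D2, and 1 of 7 tested genes was called higher in B6. Microglial markers were higher in B6 for 4 of 8 tested genes on the Affymetrix arrays (mean level 8.57 to 8.95 in B6 and 8.36 to 8.62 in D2) and for 4 of 7 on the Illumina arrays (10.03 to 10.20 and 9.52 to 9.76). Oligodendrocyte markers were higher in B6 for 6 of 7 tested genes on the Illumina arrays (12.30 to 12.75 and 11.84 to 12.24) and for 1 of 7 on the Affymetrix arrays (11.22 to 11.94 and 10.62 to 11.72). Markers of cortex and of choroid plexus varied widely within both strains of the Affymetrix arrays (6.05 to 9.57 and 6.52 to 10.61 in B6, 7.84 to 9.84 and 5.94 to 10.51 in D2), with 0 of 3 tested genes called in each list. On the Illumina arrays the choroid plexus markers read 9.05 to 13.04 in B6 and 8.91 to 12.54 in D2, with 0 of 2 called. Blood vessel markers were higher in B6 for 2 of 6 tested genes on the Affymetrix arrays and 0 of 4 on the Illumina arrays, and 1 astrocyte marker was higher in D2 on each. The part of these marker levels in the values below was not tested, and in bulk tissue fewer cells of a type and less RNA per cell cannot be told apart.

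Casp9 gave the largest difference among the members on the Illumina arrays and the only call on each array type, and the 2 calls ran in opposite directions. On the Affymetrix arrays 1 probeset read higher in D2, by 1.25-fold, and on the Illumina arrays the only probe read higher in B6. The gene lies on chromosome 4 at 141793612 to 141815978 of GRCm38.p6. The positions of the probes within it were not used here, and SNPs under the Illumina probe were not looked up.

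The Casp9 probeset 1437537_at read 7.39 to 7.68 (median 7.49) on the B6 arrays and 7.64 to 8.07 (median 7.82) on the D2 arrays. The groups overlapped by a narrow margin, and 8 of 10 D2 arrays lay above the highest B6 array. That highest B6 array was the array labelled B6 female 64, with 7.68, while the other 4 B6 females read 7.39 to 7.46. The means were 7.51 ± 0.10 in B6 (SD, n = 10) against 7.83 ± 0.13 in D2 (SD, n = 10), which differ by -0.32 (SE 0.054). It was -0.35 without the array labelled B6 female 64. Within females the difference was -0.34 (SE 0.079) and within males -0.31 (SE 0.080), and neither was called with its 10 arrays alone. The difference between these 2 values was -0.032 (SE 0.11).

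The other Casp9 probesets were not called. Probeset 1426125_a_at read 6.51 ± 0.14 in B6 (SD, n = 10) against 6.56 ± 0.13 in D2 (SD, n = 10), which differ by -0.049 (SE 0.062). Probeset 1457816_at read 6.47 ± 0.069 (SD, n = 10) and 6.56 ± 0.12 (SD, n = 10), a difference of -0.092 (SE 0.047). For 1426125_a_at the difference was -0.10 (SE 0.088) in females and 0.006 (SE 0.087) in males, and -0.082 to -0.019 with each array left out in turn. On both probesets the arrays overlapped between strains over most of the range. Of the 3 Affymetrix probesets of Casp9, 1437537_at alone thus carried a call, and no test of a difference between probesets was made.

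On the Illumina arrays the Casp9 probe ILMN_1217061 read 10.49 to 10.79 in B6 (median 10.64) against 8.94 to 9.17 in D2 (median 9.02). Every B6 array lay above every D2 array, with a gap wider than the whole spread within either strain. The means were 10.64 ± 0.092 (SD, n = 12) and 9.02 ± 0.076 (SD, n = 12), a difference of 1.62 (SE 0.039). In bead signal, which still contains background, the B6 arrays gave 1476 to 2483 (median 1812) and the D2 arrays 234 to 408 (median 338). The probe was detected above background at p under 0.05 on 12 of 12 B6 and 10 of 12 D2 arrays, the exceptions being the dim D2 arrays 3, with a detection p of 0.140, and 6, with 0.343. It thus passed the detection filter through B6.

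The size of this Casp9 difference depended on the scale, and its direction did not. From the bead signals it was 2.42 (SE 0.082) on log2 values centred on the array median, 2.28 (SE 0.065) after quantile normalization and 3.86 (SE 0.16) after background correction and quantile normalization. Without the 4 dim D2 arrays it was 1.62 (SE 0.041) on the VST scale. Leaving out each array in turn moved the difference within 1.60 to 1.63 for this probe and within -0.35 to -0.30 for 1437537_at.

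**Figure D1:**
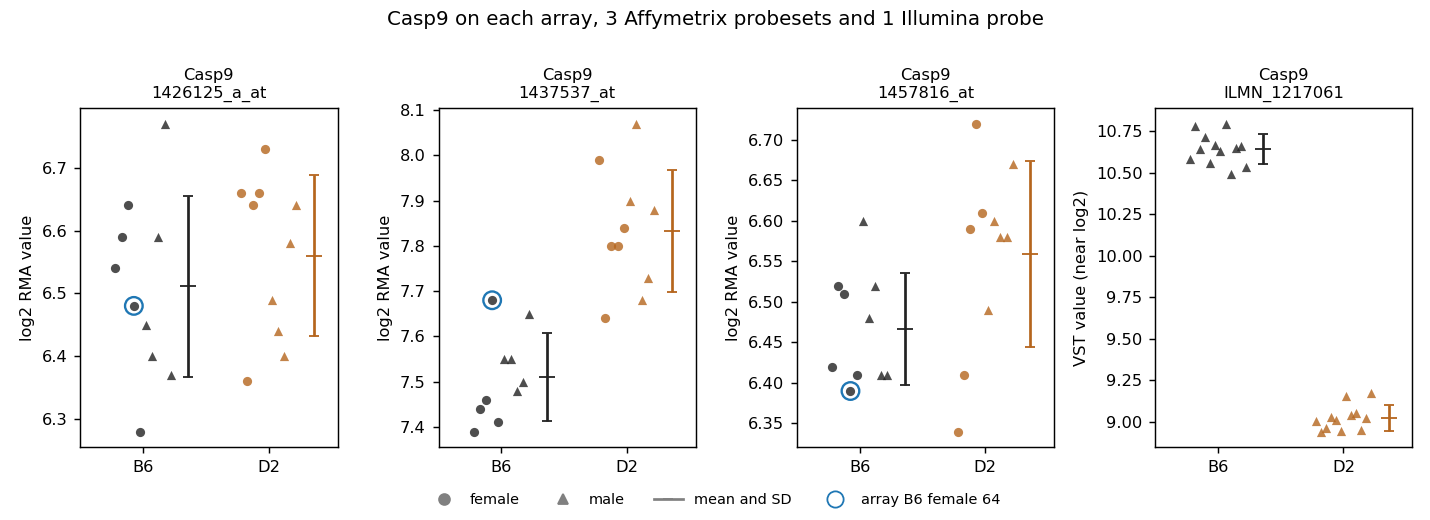
Casp9 on every array: points are single mice (circles females, triangles males), bars to the right of the points are the mean and SD, and the vertical axes are log2 RMA values for the 3 Affymetrix probesets and VST values for the Illumina probe. D2 lies above B6 for 1437537_at (7.83 against 7.51) and far below B6 for ILMN_1217061 (9.02 against 10.64), and the ring marks the array labelled B6 female 64.

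Casp2, an initiator caspase on chromosome 6, had its 1 probe on each array type tested, and neither was called. Probeset 1448165_at read 7.45 to 8.09 in B6 (median 7.74) against 7.48 to 7.82 in D2 (median 7.62), with means of 7.74 ± 0.19 (SD, n = 10) and 7.64 ± 0.12 (SD, n = 10) and a difference of 0.094 (SE 0.070). Probe ILMN_2637266 read 10.49 to 10.88 in B6 (median 10.69) against 10.08 to 10.86 in D2 (median 10.69), a difference of 0.074 (SE 0.068). The strains overlapped over most of their range on both. The Illumina difference was 0.026 (SE 0.050) without the 4 dim D2 arrays and 0.35 (SE 0.16) on centred log2 bead signals. On that centred scale the median difference of all tested Illumina probes was 0.18, in place of -0.016. The Affymetrix difference was 0.056 to 0.12 with each array left out in turn.

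Casp8, the caspase of the death receptor pathway, gave low values and was not tested on either array type. Probeset 1424552_at read 4.94 ± 0.21 in B6 (SD, n = 10) against 5.11 ± 0.27 in D2 (SD, n = 10), below the lowest mean kept, which was 6.19. Probe ILMN_1243876 was detected on 10 of 12 B6 and 9 of 12 D2 arrays and ILMN_3097868 on 7 of 12 and 4 of 12, and their differences were -0.044 (SE 0.031) and -0.028 (SE 0.030). The strains overlapped on all 3.

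Apaf1, the scaffold of the apoptosome, read lower in B6 on all 4 of its probes, and none was called. Probeset 1450223_at read 6.38 ± 0.16 in B6 (SD, n = 10) against 6.52 ± 0.15 in D2 (SD, n = 10), which differ by -0.14 (SE 0.071). Probeset 1452870_at read 7.29 to 7.62 (median 7.47) and 7.34 to 7.79 (median 7.62), a difference of -0.15 (SE 0.058). On the latter, 5 of 10 D2 arrays lay above the highest B6 array.

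On the Illumina arrays the Apaf1 probe ILMN_1228561 read 8.99 to 9.18 in B6 (median 9.09) against 9.02 to 9.36 in D2 (median 9.17), a difference of -0.075 (SE 0.038). Probe ILMN_3143577 read 9.62 to 10.25 (median 9.97) and 10.05 to 11.30 (median 10.30), with means of 9.99 ± 0.18 (SD, n = 12) and 10.34 ± 0.34 (SD, n = 12) and a difference of -0.35 (SE 0.11). Here 7 of 12 D2 arrays lay above the highest B6 array, and the highest of all, D2 array 6 with 11.30, was also the dimmest array. Without that array the difference was -0.26 (SE 0.069) and was called, and without all 4 dim D2 arrays it was -0.19 (SE 0.068) and was not. The direction was the same on all 4 Apaf1 probes under every scaling tried, while the size for ILMN_3143577 ranged from -0.55 to -0.16.

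**Figure D2:**
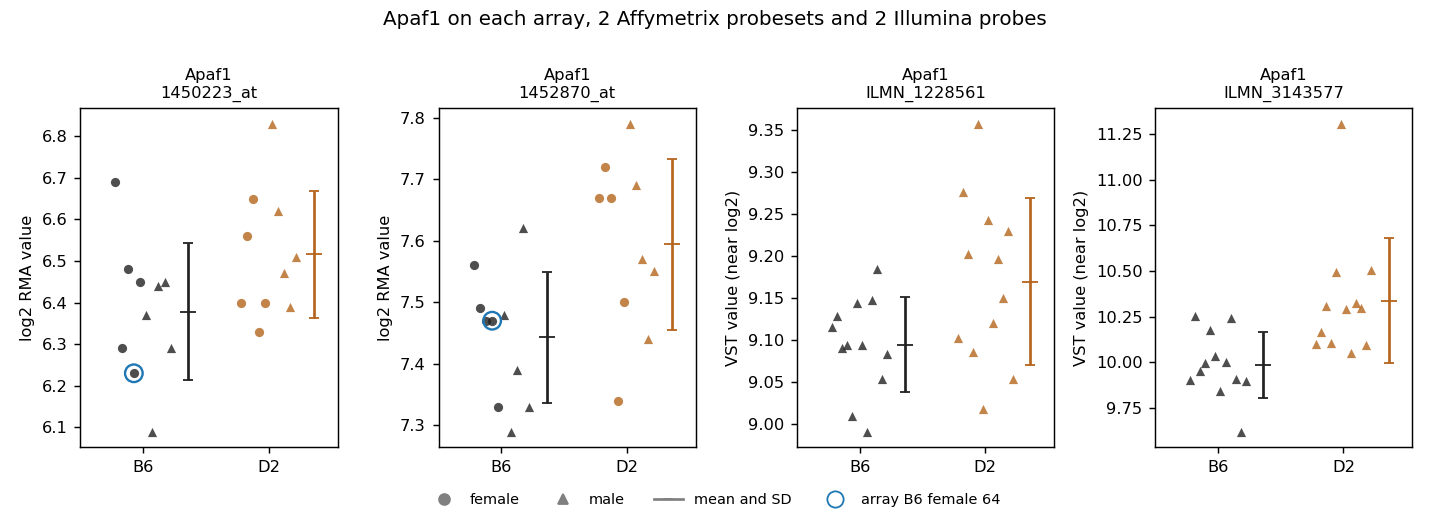
Apaf1 on every array, drawn as for Casp9, with log2 RMA values for the 2 Affymetrix probesets and VST values for the 2 Illumina probes. The D2 mean lies above the B6 mean in each panel (7.59 against 7.44 for 1452870_at), the strains overlap in each, and a single D2 array at 11.30 stands above the rest for ILMN_3143577.

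Bcl2, the founding member of its family and an inhibitor of mitochondrial release, had the most tested probes, and they did not run in 1 direction. On the Affymetrix arrays 2 of its 4 probesets read higher in B6, 1 read higher in D2 and 1 differed by -0.001, and none was called. The gene lies on chromosome 1 at 106538176 to 106714290 of GRCm38.p6. A further probeset, 1443837_x_at, has no values.

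Bcl2 probeset 1457687_at read 8.39 to 8.95 in B6 (median 8.72) against 8.34 to 8.68 in D2 (median 8.45), a difference of 0.24 (SE 0.067). Of the 10 B6 arrays, 5 lay above every D2 array, and the lowest 2, B6 female 65 with 8.41 and B6 male 66 with 8.39, lay among the D2 arrays. The probeset was called when either of these was left out, with a difference of 0.28 or 0.27, or when D2 female 75 was, with 0.26. Probeset 1437122_at read 7.12 to 7.92 (median 7.61) and 7.12 to 7.60 (median 7.35), a difference of 0.23 (SE 0.086) that was 0.19 without the array labelled B6 female 64.

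In the opposite direction, Bcl2 probeset 1440770_at read 6.29 to 6.78 in B6 against 6.35 to 7.31 in D2, with means of 6.45 and 6.78 and a difference of -0.33 (SE 0.11). The D2 arrays were spread over more than the B6 arrays, with an SD of 0.33 against 0.17, and 5 of 10 lay above the highest B6 array. Probeset 1422938_at read 7.26 ± 0.19 in B6 (SD, n = 10) against 7.26 ± 0.075 in D2 (SD, n = 10). Its difference of -0.001 (SE 0.064) changed sign with the scaling, up to 0.025.

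On the Illumina arrays 3 Bcl2 probes were tested, with differences of 0.0061 to 0.27, and none was called. Probe ILMN_1249021 read 9.85 to 10.62 in B6 (median 10.45) against 9.35 to 10.51 in D2 (median 10.19), a difference of 0.27 (SE 0.11). The lowest D2 arrays were 5, with 9.35, and 6, with 9.73, both dim, and without the 4 dim arrays the difference was 0.13 (SE 0.087), while over the scalings of the bead signals it rose to 0.57 (SE 0.20) on log2 values centred on the array median. Probes ILMN_2706514 and ILMN_1249366 differed by 0.098 (SE 0.047) and 0.0061 (SE 0.053), and over the same scalings by up to 0.30 (SE 0.13) and 0.24 (SE 0.12). On the centred scale, which gave the 0.57 and the 0.24, the median of all tested Illumina probes was 0.18 in place of -0.016.

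The overlapping Bcl2 probes ILMN_1215796 and ILMN_2597567 were not tested. They were detected on 6 and 9 of 12 B6 arrays and on 7 and 7 of 12 D2 arrays, with differences of -0.037 (SE 0.032) and -0.010 (SE 0.028). The files annotate both to another Bcl2 transcript record than the tested Illumina probes.

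**Figure D3:**
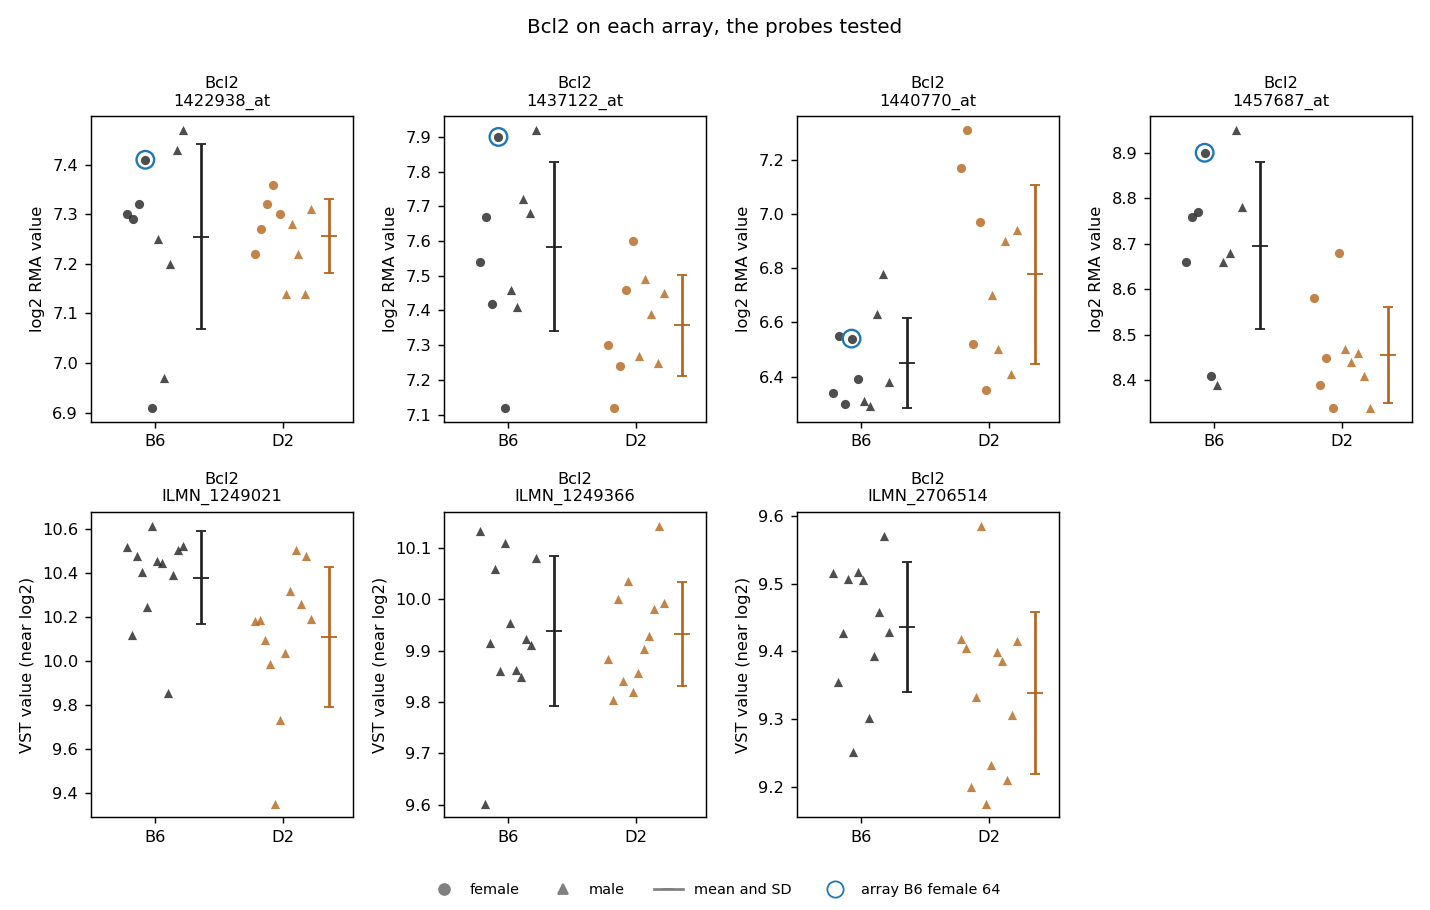
Bcl2 on every array for the 7 probes tested, drawn as for Casp9, with log2 RMA values in the upper row and VST values in the lower row. By the means, B6 lies above D2 for 1437122_at, 1457687_at, ILMN_1249021 and, by 0.098, ILMN_2706514. It lies below D2 for 1440770_at and level with it for 1422938_at and ILMN_1249366, with overlap in every panel.

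Bcl2l1, the gene of BCL-XL, differed by at most 0.083 between strains, on the authors' scales, on each of its 5 tested probes, and none was called. Probeset 1420888_at read 9.59 to 9.86 in B6 (median 9.78) against 9.68 to 9.87 in D2 (median 9.78), a difference of -0.011 (SE 0.040) and the smallest SE among the tested Affymetrix members. Probesets 1420887_a_at and 1426191_a_at differed by -0.040 (SE 0.056) and -0.063 (SE 0.082). For 1426191_a_at, B6 male 69 read 7.64 and the other 4 B6 males 6.98 to 7.15.

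The Illumina Bcl2l1 probes ILMN_2647885 and ILMN_2698430 differed by -0.011 (SE 0.034) and -0.083 (SE 0.075). The first ranged up to 0.027 over the scalings. The second was -0.13 to -0.10 under both quantile normalizations and 0.12 on centred log2 signals, a scale on which the median of all Illumina probes was 0.18 in place of -0.016. The probes not tested, 1426050_at and ILMN_2742557, differed by 0.10 (SE 0.083) and 0.036 (SE 0.039). ILMN_2742557 was detected on 5 of 12 B6 and 4 of 12 D2 arrays.

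Xiap, the X-linked inhibitor of caspases, had values here on the Affymetrix arrays alone, where 2 of its 7 probesets were tested. Both read lower in B6 on average, neither was called, and both varied more among the B6 mice, with SDs of 0.34 and 0.74, than any other tested Affymetrix member did. Probeset 1437533_at read 9.30 to 10.30 in B6 (median 10.18) against 9.96 to 10.45 in D2 (median 10.26), a difference of -0.23 (SE 0.11). Probeset 1456088_at read 6.37 to 8.71 (median 8.09) and 7.43 to 8.79 (median 8.42), a difference of -0.46 (SE 0.25).

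Of the 6 arrays lowest on 1437533_at, 5 were also among the 6 lowest on 1456088_at. B6 female 64 was lowest on each, with 9.30 for 1437533_at and 6.37 for 1456088_at, followed by B6 male 69 with 9.61 and 7.07. B6 female 62 read 9.79 and 7.30, B6 female 65 read 9.95 and 7.89, D2 female 72 read 9.96 and 7.43, and D2 male 79 read 9.96 and 7.69. B6 male 67 read 7.88 on 1456088_at but 10.30 on 1437533_at, the highest B6 value there. The low arrays belong to both strains and both sexes. Without the array labelled B6 female 64 the differences were -0.15 (SE 0.090) and -0.29 (SE 0.21).

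The other 5 Xiap probesets had mean values below the filter, and their differences ranged from -0.23 (SE 0.11) for 1421394_a_at to 0.051 (SE 0.047) for 1450232_at. The 2 tested probesets are annotated to 1 sequence record and are not independent measures of the gene.

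**Figure D4:**
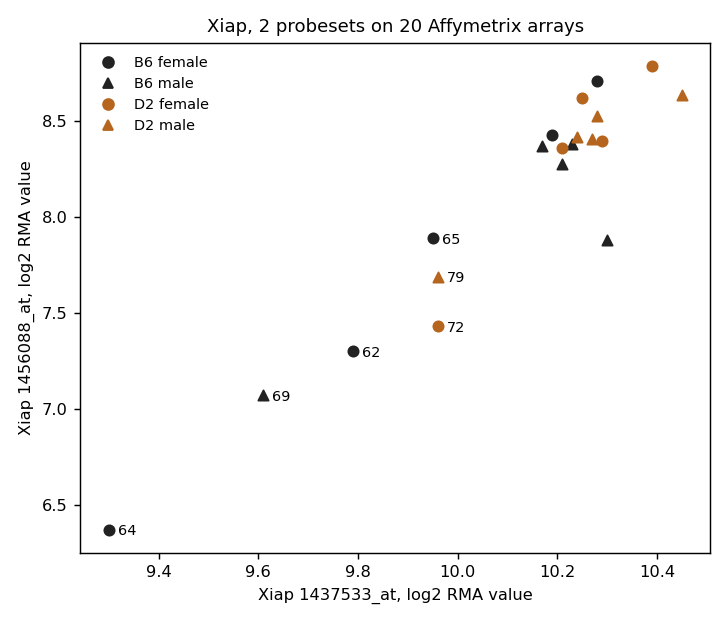
The 2 tested Xiap probesets on the 20 Affymetrix arrays: the horizontal axis is the log2 RMA value of 1437533_at and the vertical axis that of 1456088_at, with circles for females and triangles for males. The 6 numbered arrays, 4 of B6 and 2 of D2, read 9.30 to 9.96 on 1437533_at, below the other 14 at 10.17 to 10.45, and 6.37 to 7.89 on 1456088_at, where the other 14 read 7.88 to 8.79 and overlap them.

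Over all tested members, 0 of 15 Affymetrix probesets were called higher in B6 and 1 in D2, where 9.7% of all tested probesets were called in either direction and 5% with D2 higher. Of 9 Illumina probes, 1 was called higher in B6 and 0 in D2, where 9.77% of all tested probes were called in either direction and 5.36% with B6 higher. The strains did not overlap for 0 of 15 and 1 of 9 members, against 3.21% of all probesets and 2.88% of all probes. As the strain contrast chose the genes, nothing is read from these counts.

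The Affymetrix differences of the members had 3 positive and 12 negative signs and a median of -0.063, where all tested probesets had a median of -0.025. Their median size was 0.14 against 0.081 for all. The Illumina differences had 5 positive and 4 negative signs, a median of 0.0061 against -0.016 for all tested probes, and a median size of 0.083 against 0.095. Under the scalings tried, 2 of 15 Affymetrix and 2 of 9 Illumina members changed sign, all of them Bcl2 or Bcl2l1 probes with differences of at most 0.083. Leaving out the array labelled B6 female 64 changed 0 of 15 calls, and leaving out the 4 dim D2 arrays 0 of 9.

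**Figure D5:**
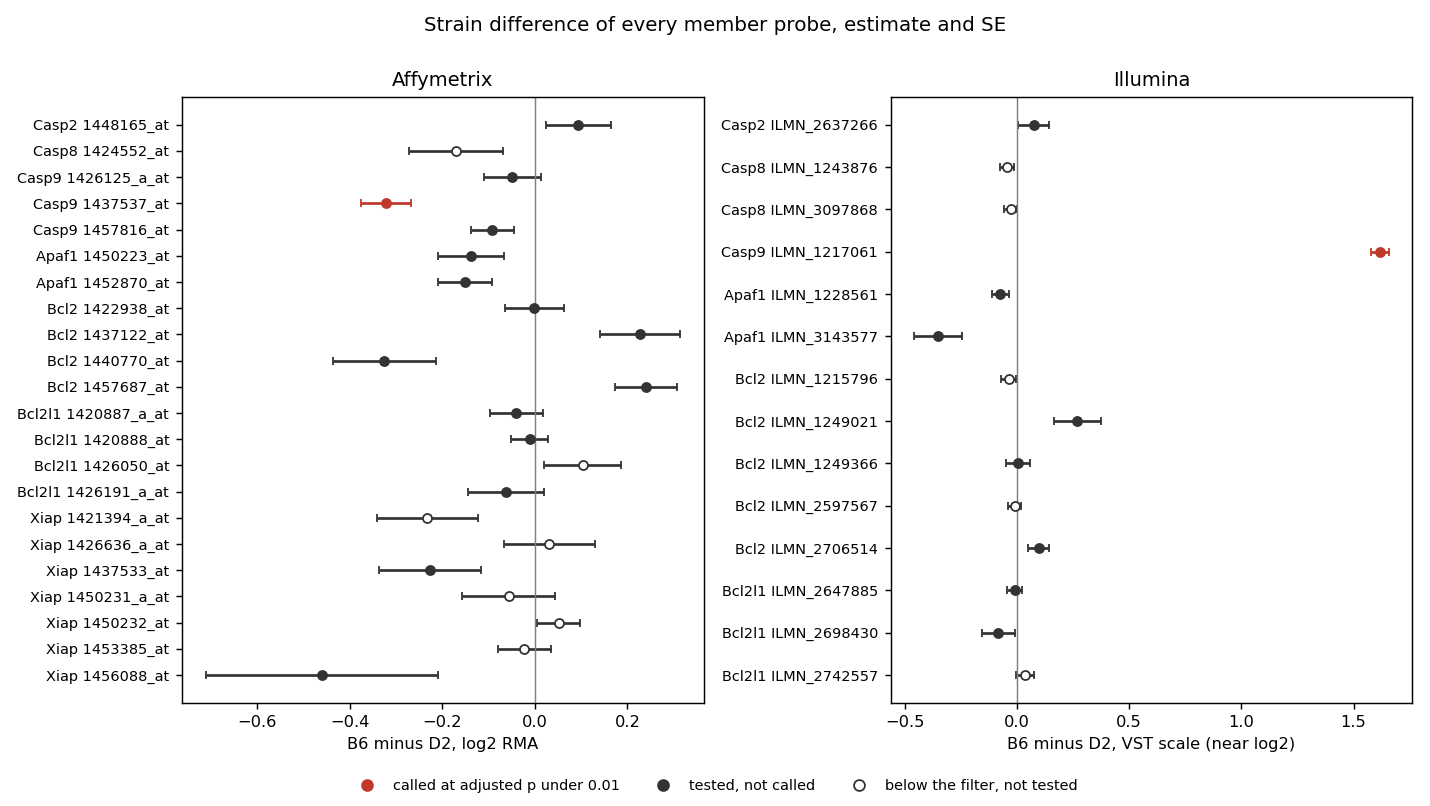
Strain difference of all 36 member probes, B6 minus D2, with points at the estimate and bars of 1 SE, on the log2 RMA scale for Affymetrix (left) and the VST scale for Illumina (right). Red points were called, which holds for Casp9 alone, at -0.32 on the left and 1.62 on the right, and open points were below the filter.

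Sex was not used to choose the genes and can be tested on the Affymetrix arrays. Female minus male differences of the 15 members, averaged over strains, ranged from -0.14 for Xiap 1456088_at to 0.074 for Bcl2l1 1420887_a_at. In limma 0 of 15 were called, the lowest p was 0.216, and every adjusted p was 0.99993, beside 0.0257% of all probesets called for sex. For Casp9 1437537_at the sex difference was -0.054 (SE 0.055), against the strain difference of -0.32 in the same mice. Xiap is X-linked, and its sex difference was -0.11 (SE 0.11) for 1437533_at.

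The strain difference itself was compared between sexes. Female minus male, it ranged from -0.24 (SE 0.51) for Xiap 1456088_at to 0.20 (SE 0.16) for Bcl2l1 1426191_a_at. The lowest p was 0.109, for Casp2 1448165_at with -0.22 (SE 0.13), where B6 males read 7.82 ± 0.18 (SD, n = 5) and the other 3 groups had means of 7.62 to 7.67. All adjusted p were 1, 0 of 15 were called, and 0% of all probesets were called. With SEs of 0.082 to 0.51, small differences between the sexes were not detectable.

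Of 51 other apoptosis genes, 27 were tested on the Affymetrix arrays and 17 on the Illumina arrays, with a gene taken at its probe of lowest adjusted p. On the Affymetrix arrays 1 was called higher in B6 and 0 in D2, where 12.5% of all genes were called. On the Illumina arrays 0 were called higher in B6 and 1 in D2, where 11.6% were. The list's median difference was -0.029 on the first, against -0.030 for all genes, and -0.12 on the second, against -0.021. Their median size was 0.057 against 0.095 for all genes, and 0.16 against 0.11.

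The gene called on the Affymetrix arrays was Bcl2l11, which encodes BIM, a BH3-only protein that BCL2 binds. Its probeset 1456005_a_at read 7.21 ± 0.27 in B6 (SD, n = 10) against 6.32 ± 0.23 in D2 (SD, n = 10), with no overlap and a difference of 0.89 (SE 0.11). With the gene taken at its probeset of highest mean it was not called, and the count for the list was 0. On the Illumina arrays Bcl2l11 differed by -0.18 (SE 0.072), the other way, and was not called. The gene called there was Casp1, the inflammatory caspase that processes interleukin-1 beta, with 9.14 ± 0.091 in B6 (SD, n = 12) against 9.32 ± 0.098 in D2 (SD, n = 12) and a difference of -0.17 (SE 0.042).

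Other partners of the members in the mitochondrial pathway were not called on either array type. Cycs, cytochrome c, differed by 0.070 (SE 0.052) on the Affymetrix and 0.042 (SE 0.042) on the Illumina arrays. Diablo, which relieves the block by XIAP, differed by 0.10 (SE 0.048) and -0.048 (SE 0.098). Aifm1, whose protein is also released from mitochondria, differed by -0.29 (SE 0.079) and -0.17 (SE 0.092). The first of these was the largest uncalled difference of the list on the Affymetrix arrays. Bcl2l2, a further protective member of the BCL2 family, differed by -0.16 (SE 0.047) and -0.20 (SE 0.065), in the same direction on both, and Bbc3, which encodes PUMA, by 0.13 (SE 0.051) and 0.13 (SE 0.046).

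The nearest tested genes on each side of Casp9 on chromosome 4 differed by at most 0.39 in either direction. Each was taken at its probe of lowest adjusted p, and other probes of these genes are not shown. Dnajc16, which ends 2.97 kb before Casp9 begins, differed by 0.15 (SE 0.043) on the Affymetrix and 0.11 (SE 0.080) on the Illumina arrays, and was called on neither. Further to that side, Plekhm2 and Slc25a34 differed by 0.080 (SE 0.049) and 0.042 (SE 0.052) on the Affymetrix arrays, and Spen and Zbtb17 by -0.052 (SE 0.044) and -0.26 (SE 0.11) on the Illumina arrays, none of them called. On the other side Fhad1 differed by -0.038 (SE 0.13) on the Affymetrix arrays. Tmem51 differed by -0.11 (SE 0.063) and -0.11 (SE 0.044), and Kazn by 0.25 (SE 0.044), called, and 0.12 (SE 0.054), not called. Pdpn, 1451 kb away, was called higher in D2 on the Illumina arrays with -0.39 (SE 0.066).

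The genes with the most similar pattern to Casp9 are given by Pearson's r as a description, since the points share arrays and normalization. Over all 20 Affymetrix arrays, strain difference included, the closest to 1437537_at were Pan3 (r = 0.91), Ipo9 (r = 0.90) and Fam118a (r = 0.90). After subtracting the group means they were Dcaf6 (0.76), Fuca2 (0.75) and Elmo1 (0.71). These 3 genes read higher in D2, with differences of -0.205, -0.223 and -0.433. The array labelled B6 female 64, at 0.51 between the strains, was kept in its labelled group. It read 7.68 on 1437537_at against a B6 female mean of 7.48, and subtracting that mean leaves this distance in place. The part of this array in these r values was not tested. Over the 24 Illumina arrays the closest to ILMN_1217061 were Abhd16a (0.99), Zfp330 (0.99) and Psmb6 (0.99), and after subtracting the group means Epop (0.75), Sypl2 (0.71) and Pced1a (0.70). No gene was named for both array types.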

How the data were processed

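The Affymetrix values, deposited by the authors on a log2 scale, were made by RMA from perfect-match probes, with masking of probes that span a SNP between the strains or align to several places. The authors' Illumina values are on a VST scale, log2-like at high signal. The methods name robust spline normalization, while sorted values were equal between arrays to within 0.0019. The deposited bead signal intensities, without background subtraction, and their detection p-values served for filters and alternatives. The methods state that Illumina probes spanning a SNP were removed from the study's analysis. The deposited table, with 14185 probes, holds more than the study lists as passing its filters. It is therefore not that filtered set, and whether a member probe in it spans a SNP was not tested here. MAS5 5.0, named in the submitters' processing notes, and the RNA-Seq libraries were not used. The version of lumi is not given in the sources used here.

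Probes were assigned to genes by the platform annotation, in which 34945 of 45037 probesets have 1 symbol, 932 several and 9160 none, and 13347 of 14185 Illumina probes have 1 and 838 none. Illumina sequences were decoded from the probe identifiers, whose checksum matched for 100% of 14185. Gene coordinates are RefSeq's on GRCm38.p6. The 2 array types hold different mice and were fitted separately in limma 3.58.1 under R 4.3.3, with statmod 1.5.0 loaded. The Affymetrix model included a term for sex. The replicate block, an alternative for the Illumina arrays, was entered as fixed terms. The number of arrays limits the precision, as does the signal of dim probes and arrays. The p-values weigh a mean difference against the spread between arrays, with 1 array per mouse. Differences between mice, dissections and arrays are not separated in that spread. The fits were tested on simulated data. The rule for named genes took every member, up to 4 called genes of the apoptosis list in each direction, the 3 genes closest to Casp9, and up to 3 tested neighbours on each side. Bcl2l11 on the Illumina arrays, Cycs, Diablo, Aifm1, Bcl2l2 and Bbc3 were added after their values were seen. Members, lists and tests were chosen with earlier results of these data known. Alternatives covered normalization, filters, sex, array weights, variance trend, threshold, replicate number and left-out arrays.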

Additional observations from a re-analysis of the deposited data

Results flagged for a closer look

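In 6 of the 88 groups of 5 Affymetrix arrays formed by a member probeset, strain and sex, a single array lay far from the other 4, past Dixon's critical value, which chance passes in about 1 group in 20. The groups share the same 20 arrays and are not independent. For Casp9, B6 female 64 read 7.68 on 1437537_at where the others of its group read 7.39 to 7.46, and D2 female 72 read 6.36 on 1426125_a_at where the others read up to 6.73. For Xiap, B6 male 69 read 9.61 on 1437533_at (others 10.17 to 10.30) and D2 male 79 read 7.69 on 1456088_at (others 8.41 to 8.64). For the BCL2 family, B6 female 65 read 6.91 on Bcl2 1422938_at (others 7.29 to 7.41) and B6 male 69 read 7.64 on Bcl2l1 1426191_a_at (others 6.98 to 7.15). Groups of 12 Illumina arrays were not examined in this way.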

How the results depend on the processing

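No alternative reversed a called difference. The count of Affymetrix members called higher in D2 went from 1 to 0 with females only, with males only (Casp9 1437537_at, -0.34 and -0.31, with 10 arrays each) and with the highest 25% of probesets by mean, which excludes Casp9. It was 1 to 1 when each array was left out in turn. The count called higher in B6 went from 0 to 1 with quantile normalization added and at an adjusted p under 0.05, and was 0 to 1 over left-out arrays, in each case through Bcl2 1457687_at. Of the Illumina members, the count higher in B6 went from 1 to 0 when detection on all arrays was required, which excludes the Casp9 probe, and was 1 to 1 over left-out arrays. The count higher in D2 went from 0 to 1 with array weights and at an adjusted p under 0.05, and was 0 to 1 over left-out arrays, through Apaf1 ILMN_3143577. For sex and strain by sex the counts were 0 to 0 over left-out arrays. With a gene taken at its probe of highest mean, 0 other apoptosis genes were called on the Affymetrix arrays, so that Bcl2l11 was not. Centring log2 bead signals moved the median of all Illumina probes from -0.016 to 0.18, and 7 uncalled Illumina values moved by more than 1 SD under this or under background correction. Strains share replicate numbers 1 to 12 on the Illumina arrays. In deviations from the strain means, 3 of 12 same-numbered pairs correlated above 0.1 (median -0.10), and 0 B6 arrays correlated best with their own number. These correlations cannot show whether the numbers paired the mice in some step of the work. With the replicate block the Casp9 difference was 1.62 (SE 0.047) and no count changed. Low signal limits Casp8, 5 probesets of Xiap and the untested Bcl2 and Bcl2l1 probes.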
